A study of Mus musculus with 8 samples.

Results

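Calmodulin, calcineurin and the classical protein kinases C (PKC) were examined as 7 genes: Calm2 and Calm3 for calmodulin, Ppp3ca, Ppp3cb and Ppp3r1 for calcineurin, and Prkca and Prkcb for classical PKC. A member was the probe annotated with that gene symbol, and where a gene had several probes, the one with the highest mean spot intensity over all 8 arrays. All 7 genes had a probe, out of 19321 genes with a symbol on the array and 23473 probes in all. Of the 7, Prkca alone had more than 1 probe.

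The arrays compared the dorsal dentate gyrus of the hippocampus between wild-type mice (WT, 4 arrays) and knockout mice without Cav3.1, a T-type calcium channel (Cav3.1 KO, 4 arrays), whose pore-forming subunit is encoded by Cacna1g. Both groups were male, 8 to 12 weeks old and labelled C57BL/6J. The tissue source is given as intact brain for both, and no treatment of the animals is named. The labels do not say how the Cav3.1 allele was made or in which cells it acts, and nothing in them ties an array to an animal of its own. The p-values therefore describe the scatter of these samples, which can be partly technical.

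Calmodulin is the small calcium sensor of the cytosol: once it binds calcium it wraps around target enzymes and switches them on. One target is calcineurin, the calcium-dependent serine/threonine phosphatase, built from a catalytic A subunit (Ppp3ca or Ppp3cb in brain) and the calcium-binding B subunit (Ppp3r1). Calcineurin dephosphorylates NFAT transcription factors and synaptic proteins, and in the hippocampus it is known for its part in long-term depression. Classical PKC enzymes need both calcium and the lipid diacylglycerol, and they phosphorylate neuronal proteins such as neurogranin, GAP-43 and MARCKS that hold calmodulin at the membrane.

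The arrays were alike in quality. Mean blank-spot intensities ran from 53.0 to 63.4, 85.4% to 93.0% of probes counted as detected, and any pair of arrays correlated across probes with r of 0.991 to 0.997. All 10 markers of mature dentate granule neurons were detected on every array, although some lay near the blanks: Dock10 spots reached 1.08 to 1.18 times the mean blank, Prox1 spots 1.14 to 1.27 times and Plk5 spots 1.15 to 1.49 times, and Tdo2 began at 1.17 times. The probe for Cacna1g read 6.43 to 6.61 across WT arrays and 6.39 to 6.55 across Cav3.1 KO arrays, a difference of -0.08 (SE 0.0508) that did not pass the test. Its position relative to the deletion was not given, so it does not check the labels. All levels given are normalised log2 intensities, and a difference is the Cav3.1 KO mean less the WT mean in log2 units.

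None of the 7 genes passed the test of Cav3.1 KO against WT across all probes, and Prkca, at a difference of -0.29, had the lowest p of them. With limma and Benjamini-Hochberg adjustment over 21150 probes, 0 of 7 members had an adjusted p under 0.05, where 61 probes (0.288%) did. At an unadjusted p under 0.05 there was 1 member, Prkca, against 8.1% of all probes tested. All 7 differences were below 0, against 50.7% of all probes, and their median was -0.072 against -0.0008 over all probes. No member had groups without overlap, a pattern that 4.95% of probes showed. The count below 0 was 5 of 7 without Cav3.1 KO replicate 1 and the median difference was then -0.014. It was also 5 of 7 without Cav3.1 KO replicate 2, and 4 of 7 without Cav3.1 KO replicates 2 and 3. On those arrays the mean over a list of markers of neighbouring thalamus and habenula was high.

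**Figure D1:**
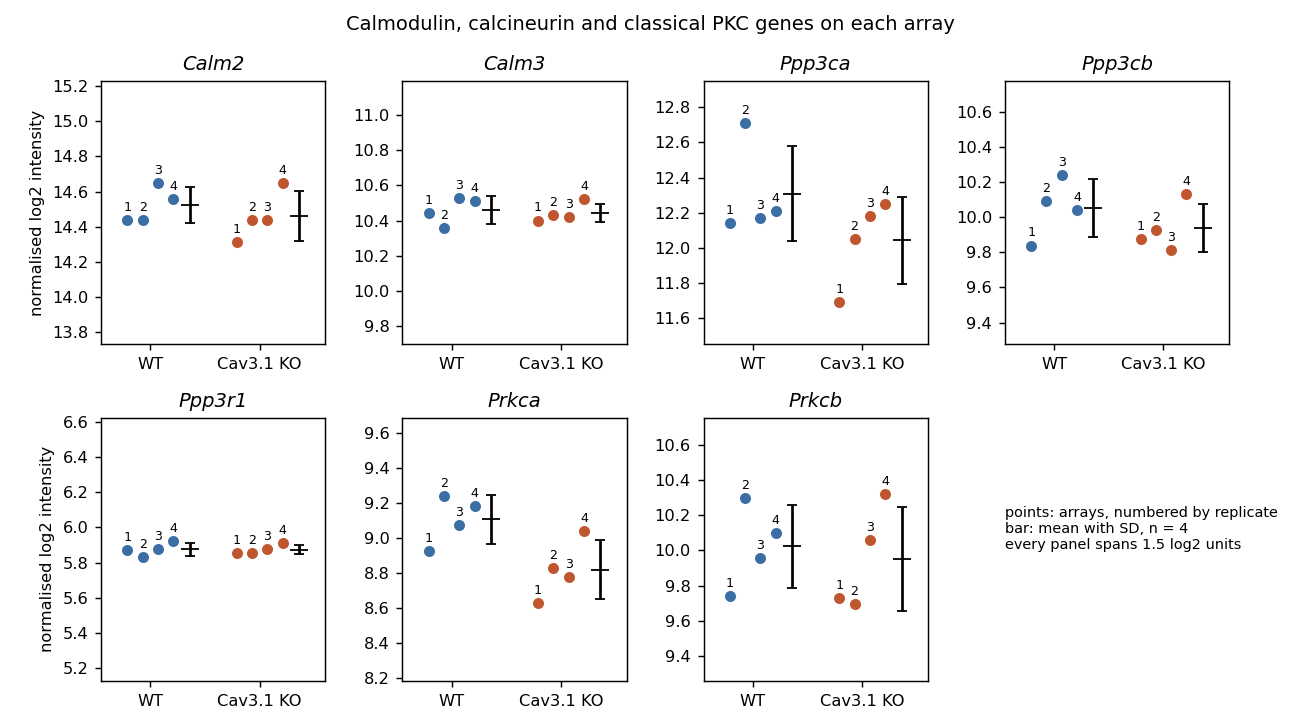
Normalised log2 intensity (vertical axis) of the 7 genes on each array, WT in blue and Cav3.1 KO in orange, with points numbered by replicate and bars for the mean and SD (n = 4). Every panel spans 1.5 log2 units. In Prkca, 3 of 4 Cav3.1 KO points lie below all WT points, while in the other genes the groups overlap more widely.

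Calmodulin itself was read through 2 of its genes, which encode the identical protein. Calm2 (probe M300010379) gave 14.44, 14.44, 14.65 and 14.56 on WT replicates 1 to 4 and 14.31, 14.44, 14.44 and 14.65 on Cav3.1 KO replicates 1 to 4. The groups shared both the level of 14.44 and the highest level. WT arrays averaged 14.52 ± 0.107 and Cav3.1 KO arrays 14.46 ± 0.142 (SD, n = 4 each), which set the difference at -0.063 (SE 0.0789, 95% interval -0.244 to 0.119, limma adjusted p = 0.97, exact two-sided permutation p = 0.657). Spots of this probe exceeded the mean blank 314 to 472 times, and only 8 to 11 probes were brighter on an array. Quantile normalisation sets a value by its rank, so at this end of the scale equal values mean equal ranks.

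Calm3 (probe M300001785) gave 10.44, 10.36, 10.53 and 10.51 in WT and 10.40, 10.43, 10.42 and 10.52 in Cav3.1 KO. Its lowest and its highest value both came from WT. The difference was -0.017 (SE 0.0447, 95% interval -0.12 to 0.0857, limma adjusted p = 0.992, exact permutation p = 0.743), the narrowest interval of the members well above the blanks. Because the probe sequences were not used here, cross-hybridisation between Calm2 and Calm3 was not tested.

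Of the calcineurin subunits, the catalytic Ppp3ca (probe M300005973) had the largest difference and also one of the widest spreads. Its levels were 12.14, 12.71, 12.17 and 12.21 in WT and 11.69, 12.05, 12.18 and 12.25 in Cav3.1 KO. WT replicate 2 stood above all other arrays and Cav3.1 KO replicate 1 below all others, while the remaining 6 arrays lay between 12.05 and 12.25. WT arrays averaged 12.31 ± 0.27 and Cav3.1 KO arrays 12.04 ± 0.25 (SD, n = 4 each), which set the difference at -0.26 (SE 0.16, 95% interval -0.63 to 0.104, limma adjusted p = 0.806, exact permutation p = 0.257). Its SD within groups was wider than that of 98.1% of probes. The difference was -0.129 without WT replicate 2 and -0.145 without Cav3.1 KO replicate 1.

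Ppp3cb (probe M300002963), the other catalytic subunit of brain, gave 9.84, 10.09, 10.24 and 10.04 in WT and 9.88, 9.93, 9.81 and 10.13 in Cav3.1 KO. Both groups spanned nearly the same range, from a low near 9.8 to a high above 10.1. The difference was -0.116 (SE 0.0938, 95% interval -0.332 to 0.0993, limma adjusted p = 0.907, exact permutation p = 0.343). It lay below 0 under every one of its 24 alternatives, at -0.28 to -0.051, and passed the test under none of those in which it was tested.

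Ppp3r1 (probe M400001618), the regulatory B subunit, was read close to the floor of the array. Its spots had 1.08 to 1.13 times the intensity of the mean blank, and its levels were 5.87, 5.83, 5.88 and 5.92 in WT and 5.85, 5.85, 5.88 and 5.91 in Cav3.1 KO. The groups overlapped almost completely. The difference of -0.0016 (SE 0.0285, 95% interval -0.0672 to 0.0639, limma adjusted p = 0.998) had no settled sign, since it was above 0 after median centring and after cyclic loess. At this brightness, with an offset of 50 added before the logarithm, a change of the transcript would be understated.

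The other genes of the calcineurin family added little. Ppp3cc, a catalytic subunit best known from testis, averaged 7.25 ± 0.0366 over the WT and 7.31 ± 0.0474 over the Cav3.1 KO arrays (SD, n = 4 each), with a difference of 0.065 (SE 0.0328, limma adjusted p = 0.709). Every Cav3.1 KO array was above the WT mean for this gene. Ppp3r2, the regulatory subunit of testis, was detected on 0 of the 8 arrays and was not tested.

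Prkca (probe M400015750), which encodes PKC alpha, was the member with the lowest p. Its levels were 8.93, 9.24, 9.07 and 9.18 in WT and 8.63, 8.83, 8.78 and 9.04 in Cav3.1 KO. Replicates 1 to 3 of Cav3.1 KO were below every WT array, and Cav3.1 KO replicate 4 was above WT replicate 1. WT arrays averaged 9.11 ± 0.139 and Cav3.1 KO arrays 8.82 ± 0.169 (SD, n = 4 each), which set the difference at -0.29 (SE 0.096, 95% interval -0.508 to -0.0664), or a ratio of 0.82 (95% interval 0.703 to 0.955). It did not pass the test (limma p = 0.017, adjusted p = 0.42, exact permutation p = 0.0571, with 0.0286 the smallest the 70 arrangements allow), and it ranked number 854 among the 21150 probes by p. Leaving out 1 array at a time gave differences of -0.361 to -0.225.

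A further probe for Prkca (M300021616) was dimmer, at 2.35 to 3.33 times the mean blank against 5.96 to 12.2 times for the chosen one. It averaged 7.44 ± 0.0936 over the WT and 7.32 ± 0.155 over the Cav3.1 KO arrays (SD, n = 4 each), with a difference of -0.113 (SE 0.0802, limma adjusted p = 0.868). The 2 probes correlated with r = 0.614 over the 8 arrays, and with r = 0.462 once each group's mean was removed. Both lay on the same side of 0, and the chosen probe gave the larger size. With the mean of both probes in place of the chosen one, the difference was -0.2 (limma adjusted p = 0.529, within a range of 0.244 to 0.843 over the 24 tested alternatives of Prkca).

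Prkcb (probe M400004271), which encodes PKC beta, gave 9.74, 10.30, 9.96 and 10.10 in WT and 9.73, 9.69, 10.06 and 10.32 in Cav3.1 KO. The highest and the lowest array were both Cav3.1 KO. The difference was -0.072 (SE 0.164, 95% interval -0.449 to 0.305, limma adjusted p = 0.989, exact permutation p = 0.657), and its SD within groups exceeded that of 98.3% of probes. Its interval includes 0 and also the whole size of the Prkca difference.

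**Figure D2:**
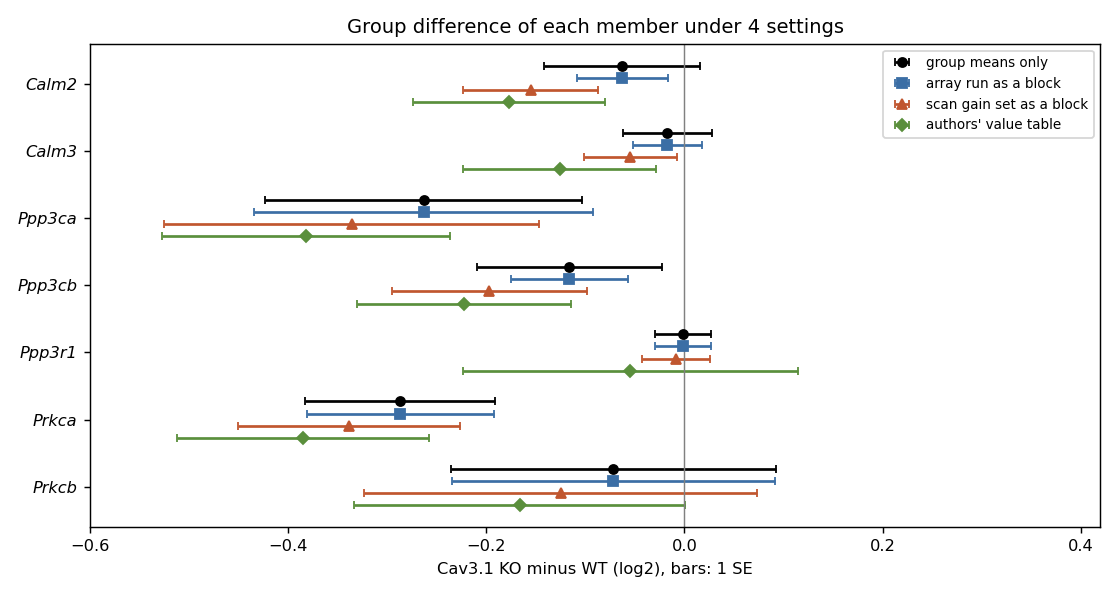
Difference Cav3.1 KO minus WT in log2 units (horizontal axis) for each gene under 4 settings, with bars of 1 SE. Prkca lies between -0.385 and -0.287 under these settings, and the intervals of Calm3 and Ppp3r1 stay closest to 0.

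The 7 genes followed the array as much as the group. Each gene's values were expressed as deviations from its own mean over the 8 arrays. Cav3.1 KO replicate 1 was below the mean for 7 of 7 genes and the lowest array for 3 of them, with a mean deviation of -0.206. WT replicate 1 and Cav3.1 KO replicate 2 were below the mean for 7 of 7 as well, at -0.078 and -0.102. For WT replicate 1 this count includes values almost at the mean, Ppp3r1 at -0.00017 and Calm3 at -0.012. At the other end, WT replicate 4 and Cav3.1 KO replicate 4 were below the mean for 0 of 7, at 0.084 and 0.127. Arrays of both groups were thus found on each side.

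**Figure D3:**
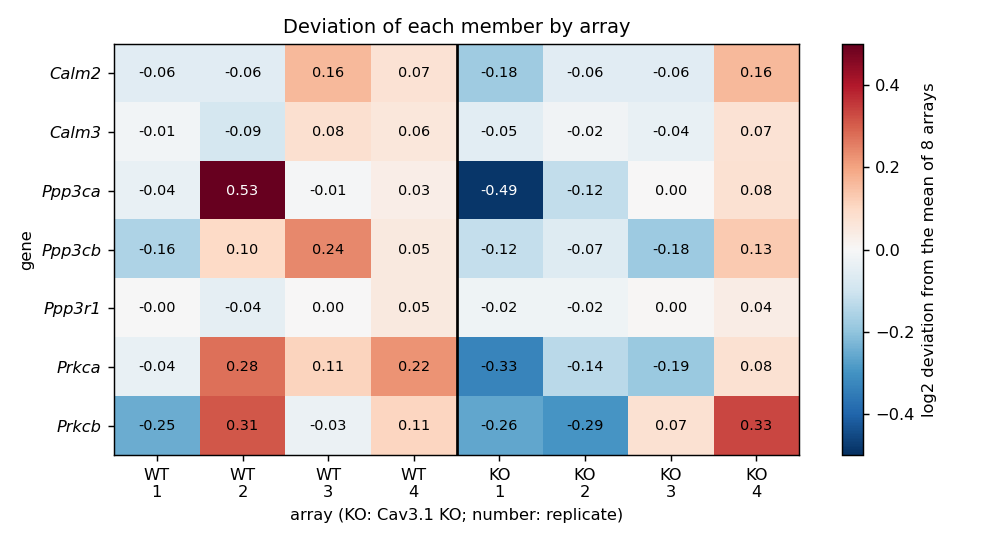
Deviation of each gene (rows) on each array (columns) from its mean over the 8 arrays, in log2 units, red above and blue below, with the line dividing WT from Cav3.1 KO. The column of Cav3.1 KO replicate 1 is blue throughout, that of Cav3.1 KO replicate 4 red throughout, and the largest single deviations are the 0.53 and -0.49 of Ppp3ca.

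With the group means removed, 19 of the 21 pairs of members correlated positively over the 8 arrays, with r from -0.209 to 0.89 and a median of 0.542. The pair Calm2 and Calm3 had the highest r, 0.89, and Prkca and Prkcb followed at 0.855. Ppp3ca went with the PKC genes, at 0.785 with Prkcb and 0.778 with Prkca, rather than with Calm3, at -0.209. WT replicate 2 was the highest array for Ppp3ca and Prkca (deviations of 0.53 and 0.28) and the lowest for Calm3 (-0.088). These correlations were not computed without that array. The correlations among members are a description of 8 points that share tissue, labelling and normalisation. The share of positive pairs among other genes was not computed.

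The genes with the most similar profile were also listed for each member, as the pair with the highest r among 16405 genes after removing group means. For Prkca they were Drd5 (r = 0.988), a dopamine receptor, and Scai (r = 0.978). For Prkcb they were Junb (r = 0.989), an activity-regulated transcription factor, and Armcx3 (r = 0.974). Ppp3ca paired with Mbtps2 (r = 0.985) and Ncoa4 (r = 0.985), Ppp3cb with Abcc12 (r = 0.993) and Adam10 (r = 0.975), and Ppp3r1 with Abca5 (r = 0.99) and Htr2a (r = 0.975). Calm2 went with Pik3r5 (r = 0.986) and Ighv8-12 (r = 0.985), and Calm3 with Fxyd6 (r = 0.994) and Olfr502 (r = 0.994). Values this high come in part from picking the best of so many genes over 8 arrays. The listed genes had differences between -0.251, for Drd5, and 0.495, for Fxyd6, and limma gave them adjusted p-values of 0.162 to 0.998.

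Sequences upstream of the starts are shown for Prkca and Prkcb, picked because they varied together from array to array. That of Ppp3cb stands beside them as the member of lowest GC content. Shared control of these genes was not tested. RefSeq (GRCm38.p6) supplied the 250 bases before the start for 5 of the 7 members, and Calm2 and Ppp3ca had no entry in the table used. Capitals mark matches, on either strand, to 4 short motifs: the cAMP response element core TGACG, the NFAT core GGAAA, the GC box GGGCGG and the TATA motif TATAAA. The Prkca sequence lies on the minus strand of chr11:108343889-108344138, that of Prkcb on the plus strand of chr7:122288875-122289124, and that of Ppp3cb on the minus strand of chr14:20546574-20546823. Each is written 5′ to 3′ on the strand of its gene.
Prkca: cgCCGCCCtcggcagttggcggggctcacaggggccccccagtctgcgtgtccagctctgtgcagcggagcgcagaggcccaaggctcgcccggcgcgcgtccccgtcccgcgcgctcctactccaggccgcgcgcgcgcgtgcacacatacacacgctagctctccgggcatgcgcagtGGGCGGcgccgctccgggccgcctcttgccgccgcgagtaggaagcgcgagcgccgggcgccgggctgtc
Prkcb: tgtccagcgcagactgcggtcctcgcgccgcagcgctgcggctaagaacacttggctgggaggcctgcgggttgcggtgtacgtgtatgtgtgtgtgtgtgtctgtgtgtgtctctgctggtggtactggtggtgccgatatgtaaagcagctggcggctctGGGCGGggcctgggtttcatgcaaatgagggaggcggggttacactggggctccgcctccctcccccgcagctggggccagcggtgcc
Ppp3cb: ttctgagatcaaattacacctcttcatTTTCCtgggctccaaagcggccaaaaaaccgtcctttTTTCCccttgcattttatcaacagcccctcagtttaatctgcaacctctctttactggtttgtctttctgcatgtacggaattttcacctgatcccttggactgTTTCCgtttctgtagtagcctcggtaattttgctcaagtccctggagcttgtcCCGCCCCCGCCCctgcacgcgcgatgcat

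These windows differed in composition. GC content was 76.8% for Prkca, 65.2% for Prkcb, 70.8% for Ppp3r1, 69.2% for Calm3 and 48.4% for Ppp3cb, against a median of 52.4% (quartiles 45.2% and 61.2%) over 32851 promoters. The GC box matched in Prkca (2 matches), Prkcb (1), Ppp3cb (2) and Ppp3r1 (4), and 32.7% of all promoters hold it. The NFAT core matched in Ppp3cb (3 matches) and Calm3 (1), a motif so short that 55.6% of all promoters hold it. TGACG matched once each in Ppp3r1 and Calm3, against 17.8% of all promoters, and TATAAA matched in 0 of the 5 windows, against 12.4%. No matches of different motifs overlapped. A match is a run of letters and not evidence that a factor binds there.

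Prkca and Ppp3r1 lie on chromosome 11, the chromosome that also carries Cacna1g. The other members lie on chromosomes 17 (Calm2), 7 (Calm3 and Prkcb), 3 (Ppp3ca) and 14 (Ppp3cb).

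The lines between scan gains were spread unevenly over the groups, and the sets below were formed from their slopes, not from a named setting. The headers of the scanner files give the lines by which 3 scan gains were related, and these fell into a pair of sets: WT replicates 1, 2 and 4 with Cav3.1 KO replicate 1 (set A, slopes of 0.478 to 0.48 for the first gain pair), and WT replicate 3 with Cav3.1 KO replicates 2 to 4 (set B, 0.485 to 0.486). With the set as a block, the differences were -0.339 for Prkca, -0.336 for Ppp3ca, -0.197 for Ppp3cb and -0.155 for Calm2. Within set A, Prkca gave -0.485 and within set B -0.192. Ppp3ca gave -0.664 within set A, where Cav3.1 KO replicate 1 is the lone Cav3.1 KO array, and -0.0079 within set B. In Prkcb the values were -0.317 and 0.066. In each set 1 group has a lone array, which is taken to vary like the others, and whether the sets differ was not tested.

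A further split concerned WT replicate 3 and Cav3.1 KO replicate 4, whose file numbers stand apart from those of the other 6 arrays. No header calls this a batch, and the 2 arrays are called the later run here. Among the other 6 arrays, Prkca differed by -0.371, Ppp3ca by -0.379 and Prkcb by -0.217. Between the 2 arrays of the later run, the single differences were -0.034 for Prkca, 0.083 for Ppp3ca and 0.363 for Prkcb. Members called by limma numbered 0 with the run as a block and among the 6 arrays alone, where 44 and 7 of 21150 probes were called. At an unadjusted p under 0.05 there was 1 member in each case, Prkca, against 1800 and 1406 of the 21150 probes.

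The scale of bright probes also depended on the normalisation. Over the 1155 tested probes with a mean spot intensity of at least 1000, a limit chosen after the data were seen, the median difference was 0 after quantile normalisation and -0.095 after median centring, with 80.2% of them below 0. In the authors' value table it was -0.103 against -0.066 over all probes tested there. Quantile normalisation gives every array the same set of values, so a median near 0 on that scale is largely built in. Calm2, Calm3, Ppp3ca, Ppp3cb and Prkcb belong to these bright probes. Their differences after median centring and in the authors' value table are therefore read against that shift.

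In the authors' value table, 3 of 7 members had groups that did not overlap, against 5.19% of the probes tested there. Log2 values of Prkca spanned 8.25 to 8.55 for WT and 7.77 to 8.17 for Cav3.1 KO, a difference of -0.385 (limma adjusted p = 0.468). Those of Ppp3ca were 11.54 to 12.05 and 11.06 to 11.49, a difference of -0.382 (limma adjusted p = 0.575). For Calm2 they were 13.92 to 14.04 and 13.75 to 13.86, a difference of -0.177 (limma adjusted p = 0.747). No member passed the test on that scale, and with quantile normalisation, median centring, cyclic loess or no background correction the count without overlap was 0 of 7. All 7 members were below 0 in the authors' table, where 67.5% of all probes tested and 81.7% of the bright ones were too. All 7 were also below 0 after quantile normalisation, with or without background correction, and 6 of 7 after median centring or cyclic loess.

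The wider pathway was read through lists of calmodulin, calcineurin and PKC genes, 91 of them beside the members, of which 81 were tested. Of these, 0 rose and 0 fell by limma at an adjusted p under 0.05. At an unadjusted p under 0.05 there were 10 (12.3%, against 8.1% of all probes), 6 lower and 4 higher in Cav3.1 KO. Differences were below 0 for 38 of 81, and their median was 0.0064. Groups did not overlap for 4 of 81, Rcan2, Ppp1r1a, Dgkz and Plce1, against 4.95% of all probes.

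**Figure D4:**
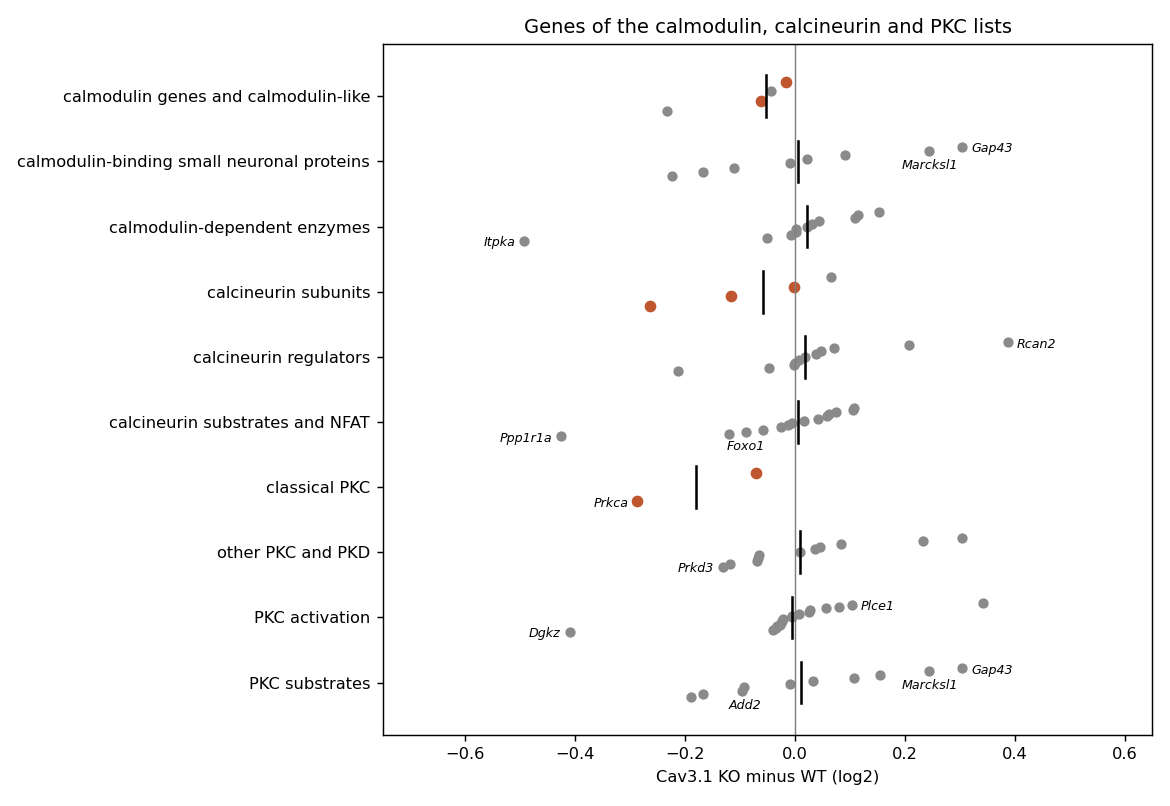
Difference Cav3.1 KO minus WT in log2 units (horizontal axis) of every tested gene in 10 lists (rows), the 7 members in orange and the others in grey, with a black line at each list's median. Genes with an unadjusted p under 0.05 carry their names: Itpka, Ppp1r1a and Dgkz lie farthest to the left and Rcan2 farthest to the right.

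Among regulators of calcineurin, Rcan2, an inhibitor that binds the catalytic subunit, had the smallest p of all the lists. WT arrays averaged 9.59 ± 0.122 and Cav3.1 KO arrays 9.98 ± 0.093 (SD, n = 4 each), which set the difference at 0.39 (SE 0.0691, limma p = 0.000478, adjusted p = 0.092), an exact permutation p of 0.0286, and all Cav3.1 KO arrays above all WT arrays. The list of 11 regulators had 0 genes past the threshold, 1 at an unadjusted p under 0.05, and a median difference of 0.018. Fkbp1a, the binding partner of the calcineurin inhibitor FK506, differed by -0.21 (limma adjusted p = 0.747), and its relative Fkbp1b by 0.21 (limma adjusted p = 0.815).

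Among calcineurin substrates and NFAT factors, 0 of 14 tested genes passed the threshold by limma, 2 had an unadjusted p under 0.05 and 7 lay below 0. Ppp1r1a, the protein phosphatase inhibitor 1 that calcineurin dephosphorylates, was 10.80 ± 0.107 on WT arrays and 10.37 ± 0.166 on Cav3.1 KO arrays (SD, n = 4 each). All Cav3.1 KO arrays were below all WT arrays, and the difference of -0.43 (SE 0.0871, limma adjusted p = 0.143) did not pass. Foxo1 differed by -0.089 and Nfatc4 by 0.059, with adjusted p-values of 0.506 and 0.733 by limma.

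Calmodulin-dependent enzymes other than the CaM kinases had 0 of 11 past the threshold and 1 at an unadjusted p under 0.05, and 8 lay above 0. The exception in size was Itpka, the inositol trisphosphate 3-kinase of dendritic spines, at 11.67 ± 0.164 on WT arrays and 11.18 ± 0.278 on Cav3.1 KO arrays (SD, n = 4 each). Its difference was -0.49 (SE 0.14, limma adjusted p = 0.314), and 3 of 4 Cav3.1 KO arrays were below all WT arrays. Atp2b2, a plasma membrane calcium pump, differed by 0.15 (limma adjusted p = 0.682), and Mylk, myosin light chain kinase, by 0.044 (limma adjusted p = 0.84).

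Among 8 calmodulin-binding proteins of neurons, several of which are also PKC substrates, 0 passed the threshold by limma, 2 had an unadjusted p under 0.05 and 4 lay below 0. Gap43, a growth-cone protein, was 10.58 ± 0.197 on WT arrays and 10.89 ± 0.14 on Cav3.1 KO arrays (SD, n = 4 each), a difference of 0.30 (SE 0.106, limma adjusted p = 0.451). Nrgn, neurogranin, differed by -0.17 (SE 0.084, limma adjusted p = 0.71), and Marcksl1, a MARCKS relative, by 0.24 (SE 0.0958, limma adjusted p = 0.554). In the PKC substrate list, 0 of 10 passed, 3 had an unadjusted p under 0.05 and 5 lay below 0. Without Cav3.1 KO replicates 2 and 3, Nrgn differed by -0.072, and with the scan gain set as a block Marcksl1 differed by 0.154. Add2, beta-adducin of the membrane skeleton, differed by -0.097 (limma adjusted p = 0.609).

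The list of PKC activation covered phospholipases C and diacylglycerol kinases, which make and remove the activator of classical PKC, with Gq proteins and anchors. In that list 0 of 17 tested genes passed the threshold by limma and 2 had an unadjusted p under 0.05, with a median of -0.0055. Dgkz, the diacylglycerol kinase zeta, was 9.28 ± 0.241 on WT arrays and 8.87 ± 0.06 on Cav3.1 KO arrays (SD, n = 4 each), with no overlap and a difference of -0.41 (SE 0.108, limma adjusted p = 0.269). Plce1, phospholipase C epsilon, had no overlap either, at a difference of 0.10 (limma adjusted p = 0.379). Plcb4 differed by 0.34 with an SE of 0.25, and by 0.512 with the scan gain set as a block. The PKC family outside the classical group had 0 of 11 past the threshold, 1 at an unadjusted p under 0.05 and a median of 0.0083, with Prkd3, a protein kinase D, at -0.13 (limma adjusted p = 0.538), Pkn2 at -0.069 and Prkcz at -0.065. Among the calmodulin-like genes, Calml3 differed by -0.044 and Calml4 by -0.23, the latter with an SE of 0.466. The Calml4 value was -0.913 without Cav3.1 KO replicates 2 and 3 and -0.046 with the scan gain set as a block. Calml4 was 7.77, 7.76, 6.44 and 6.99 on WT replicates 1 to 4 and 6.77, 7.82, 7.55 and 5.885 on Cav3.1 KO replicates 1 to 4. The mean of choroid plexus markers on the same arrays was 8.74, 9.03, 7.39 and 8.22, and 8.00, 8.87, 8.485 and 6.44. The part of choroid plexus tissue in the Calml4 values was not tested.

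Markers of cell types were read beside the members, since in bulk tissue fewer cells of a type and less RNA per cell cannot be told apart. The mean of the 10 granule neuron markers ran from 7.165 to 7.275 over WT arrays and from 7.005 to 7.15 over Cav3.1 KO arrays, and that of the 6 CA pyramidal markers from 7.55 to 7.71 and from 7.24 to 7.45, so that neither pair of ranges overlapped. Of the granule markers, 7 of 10 lay below 0. Groups did not overlap for 5 of 10, against 4.95% of all probes. By limma, 5 of 10 had an unadjusted p under 0.05, against 8.1%. C1ql2 fell (-0.57, limma adjusted p = 0.0065). Trpc6 (-0.57), Lct (-0.25), Stxbp6 (-0.22) and Plk5 (-0.19) were lower without passing the test. Calb1 differed by 0.34 (limma adjusted p = 0.523), Tdo2 by 0.072 and Dsp by 0.043, and Prox1 and Dock10 were at -0.053 and -0.0026. Of the pyramidal markers, 5 of 6 lay below 0 and Bok fell (-0.65, limma adjusted p = 0.0065). Neurod6 differed by -0.48 (limma adjusted p = 0.283), Wfs1 by -0.22, Fibcd1 by -0.083, Iyd by -0.033 and Grik4 by 0.013. Interneuron markers overlapped, with 8.68 to 8.90 for WT and 8.69 to 9.15 for Cav3.1 KO, as did astrocyte markers, at 8.79 to 8.91 and 8.84 to 8.92. Of the astrocyte markers, Gjb6, a connexin, rose (0.38, limma adjusted p = 0.0269), and the others ran from -0.095 (Slc1a2) to 0.019 (Slc1a3). Endothelial marker means were 7.77 to 7.94 for WT and 7.61 to 7.80 for Cav3.1 KO, with 4 of 6 markers below 0. Cldn5, a tight-junction protein, fell (-0.79, limma adjusted p = 0.0182). Tek differed by -0.12, Flt1 by -0.087, Pecam1 by -0.0052, Slco1a4 by 0.05 and Esam by 0.13. All 6 microglia markers lay below 0 and 0 passed the threshold by limma, with 1 at an unadjusted p under 0.05. Oligodendrocyte marker means overlapped, at 10.61 to 10.90 and 10.39 to 11.01, as did those of mossy cells, at 7.75 to 8.22 and 7.91 to 8.32. Choroid plexus markers varied most between arrays, from 7.39 to 9.03 for WT and 6.44 to 8.87 for Cav3.1 KO, and Ttr spots ran from 3.12 to 783 times the mean blank. Thalamus and habenula markers averaged 7.355 (replicate 2) and 7.351 (replicate 3) among Cav3.1 KO arrays, and 6.66 to 6.77 on the other Cav3.1 KO arrays and 6.61 to 6.99 for WT. Of the 7 tested thalamus and habenula markers, Tac2 differed by 1.13, Ramp3 by 0.45, Rora by 0.12 and Pou4f1 by 0.11. Gbx2 differed by 0.056, Nwd2 by 0.0018 and Lef1 by -0.054, and 0 passed the threshold by limma. Tcf7l2, a thalamic transcription factor, was detected on 1 array. The part of these shifts in the differences of Prkca, Ppp3ca and the other members was not tested.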

How the data were processed

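RNA of 8 samples was labelled with Cy5 and hybridised to single-colour TORAY arrays, per the labels' protocols. The scanner files deposited by the authors hold a median spot intensity for each probe, not normalised, per the file headers, and flags for 3 scan gains, whose merging into 1 value is not described. The column headed as background followed its own spot on every array (correlation of logarithms 0.994 to 0.996) and was not subtracted. The value table deposited by the authors holds a blank-subtracted linear intensity with a median of 25 on each array, as its values show, and served as an alternative.

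Spot intensities, control spots included, were corrected by normexp (offset 50), followed by log2 and quantile normalisation over the 23473 probes. Probes above the 95th percentile of an array's blank spots on at least 4 of 8 arrays were tested, which left out 2239 dim probes and a further 84 with flagged spots. The comparison used limma (version 3.58.1, R version 4.3.3), with group means as the only terms (lmFit, eBayes, Benjamini-Hochberg over 21150 probes, threshold 0.05) and, for single genes, with an exact two-sided permutation test over 70 arrangements. The script was tested on simulated data. The number of arrays limits the precision, and the offset makes log2 differences understate changes of dim genes. Same-numbered arrays of the groups did not deviate together (r of deviations from -0.115 to 0.0109), so the numbers were not taken as pairs.

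The members and the gene lists were chosen with earlier results of these data known. Named were all members, further calcineurin subunits, up to 3 further genes of each list with the smallest p, and for each member the 2 genes most like it over the arrays. The scan gain sets, the joint omission of Cav3.1 KO replicates 2 and 3, the motifs, the limit for bright probes and the correlations among members were added after the data were seen. The alternatives were other background corrections, scalings, filters and blocks, and each array left out.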

Additional observations from a re-analysis of the deposited data

Results flagged for a closer look

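In a search for single arrays far from the rest of their group, 62 groups of 4 arrays were checked. They were the groups of the members and the named pathway genes. Of the 62, 2 were flagged, a smaller share than the about 1 in 20 that chance gives. Ppp3ca was 12.71 in WT replicate 2, against 12.14 to 12.21 in the other WT arrays, a gap of 0.876 of the group's range. Nrgn was 11.24 in WT replicate 4, against 10.96 to 10.98 in the other WT arrays, a gap of 0.918 of the range. Both gaps exceed Dixon's critical share for 4 arrays. The causes were not tested.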

How the results depend on the processing

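Members past the threshold numbered 0 under each of 23 alternatives fitted with limma, and the sign of a member's difference changed in 18 of the 169 alternative values of all members, in 4 genes (Calm3, Ppp3ca, Ppp3r1 and Prkcb). Leaving out 1 array gave -0.0492 to 0.00619 for Calm3, -0.0168 to 0.0137 for Ppp3r1 and -0.195 to 0.0192 for Prkcb. For Ppp3r1 the difference was 0.000372 with the mean blank subtracted, 0.019 after median centring, 0.000701 after cyclic loess and 0.00481 within scan gain set B, where Prkcb gave 0.0664. Without Cav3.1 KO replicates 2 and 3 together the values were 0.00113 for Calm3, 0.00644 for Ppp3r1 and 0.00172 for Prkcb. Between the single pair of arrays of the later run they were 0.0828 for Ppp3ca, 0.0346 for Ppp3r1, -0.034 for Prkca and 0.363 for Prkcb. Prkca stayed below 0 under all of its 25 alternatives, with adjusted p of 0.244 to 0.843 where tested.

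The count of 61 probes called in all became 36 with median centring, 34 in the authors' value table, 23 with the scan gain set as a block, 17 without Cav3.1 KO replicates 2 and 3, 7 among the 6 arrays outside the later run, and 16 to 49 with 1 array left out, lowest without WT replicate 4. It was 83 with a variance trend, 61 with cyclic loess, 60 for probes detected on all 8 arrays and 58 without background correction. Within scan gain sets A and B there were 0, with 2093 and 1422 probes at an unadjusted p under 0.05. With the replicate number as a block, 8 probes and 0 members were called. The same numbers showed no shared deviation, so this is no paired analysis. The causes of these changes were not tested. Brightness limits Ppp3r1, whose spots lay near the blanks.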
